A study of Homo sapiens with 9 samples.

Results

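Tumours given an adenovirus carrying the K458R form of HNF4A (Ad-K458R, 3 libraries) were compared with tumours given the unchanged HNF4A adenovirus (Ad-HNF4A, 3 libraries). These 6 libraries were chosen from the 9 of the series by their titles and, for Ad-K458R library 3, whose title is misspelt, by its description, and all 16697 genes that passed a filter on low counts were tested, of 50868 in the table. The tumours were grown from Huh-7, an established human hepatocellular carcinoma line, under the skin of NOD/SCID mice, which lack functional lymphocytes. In the labels' treatment field, libraries 2 and 3 of both vectors carry other construct numbers than in their titles or descriptions, which were followed here. Virus was injected into tumours of about 100 mm3 every 4 days over 8 days. The 3 control libraries, from tumours given a green fluorescent protein adenovirus (Ad-GFP), share the line, host and schedule and are given beside many of the results. The age and sex of the mice, the promoter in the vectors, their HNF4A isoform and the amount of virus were not stated in the labels. Libraries are numbered within a group, and whether each came from a separate mouse is not stated, and p-values then reflect only the scatter among libraries, which may be technical.

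HNF4A is a nuclear receptor that binds DNA as a homodimer and drives many hepatocyte genes, among them those for apolipoproteins, clotting factors and enzymes of bile acid, amino acid and drug metabolism. Lysines in transcription factors can be acetylated, methylated or ubiquitinated. Arginine keeps the positive charge of lysine but cannot carry these marks in the same way, so an exchange of lysine for arginine is a common way to ask what a modified lysine does. The K458R change is of that kind, and the comparison asks how the tumour transcriptome differs when the vector carries it.

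The codon is shown because it is the only designed difference between the vectors' proteins that the labels name. Of 9 translated HNF4A transcripts in GENCODE 29, 1 encodes a lysine at the residue that K458R names, ENST00000316099.8, whose protein has 474 residues. The codon lies in its exon 10 of 10, at chr20:44429612-44429614 on the plus strand of GRCh38, within coding sequence near the C-terminus. The reference stretch of 33 bases around it, at chr20:44429597-44429629, reads 5′ to 3′ with the lysine codon in capitals.
HNF4A lysine codon: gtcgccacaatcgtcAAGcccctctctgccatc
Which arginine codon the vector uses was not stated.

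HNF4A mRNA was high with both vectors, but less even among the Ad-HNF4A libraries. With Ad-GFP it stood at 154, 169.6 and 183 CPM in libraries 1 to 3, where CPM is counts per 1000000 counts of a library after TMM scaling. With Ad-HNF4A it stood at 3699.8, 3507 and 5391 CPM, and with Ad-K458R at 5412, 4999 and 5489 CPM. Ad-HNF4A library 3 thus lay within the range of the Ad-K458R libraries, while libraries 1 and 2 lay below all of them. The log2 fold change between the vectors was 0.34 ± 0.15 (SE) and did not pass the test (adjusted p = 0.59, edgeR; 95% interval -0.02 to 0.69). An exact two-sided permutation test of 3 against 3 libraries gave p = 0.2, where 0.1 is the smallest it can give. Without Ad-HNF4A library 3 the difference was 0.56 and passed (adjusted p = 0.0442, edgeR). Reads of HNF4A-AS1, which overlaps HNF4A on the other strand, may not have been told apart, since no step that keeps the strand is described.

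The 6 libraries held 15933702 to 22136627 counts each. In a principal component analysis of these 6, Ad-HNF4A library 1 stood apart on the first component, at -46.5 against 6.5 to 11.6 for the others (27.0% of the variance). On the second (21.5%), Ad-HNF4A library 3 was highest at 33.9, and the Ad-K458R libraries lay between -23.8 and -3.87. Pairs of libraries from different vectors differed by 0.449 to 0.523 (root mean square of log2 CPM differences over all genes), pairs within Ad-HNF4A by 0.478 to 0.529 and pairs within Ad-K458R by 0.419 to 0.450. Distances between vectors thus overlapped those within Ad-HNF4A. Calls, named genes and list medians were also computed without each library in turn.

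Of 16697 genes, 2 differed between the vectors at an adjusted p under 0.05 (0.012%, edgeR quasi-likelihood test with Benjamini-Hochberg adjustment). TGFBR1 was lower and TMEM30A was higher with Ad-K458R, and both stood near their Ad-GFP levels there. TGFBR1 encodes the type I receptor of TGF-beta, the kinase that phosphorylates SMAD2 and SMAD3 (ENSG00000106799, chromosome 9, 99104038 to 99154192). TMEM30A, also called CDC50A, encodes the beta subunit that P4-ATPase flippases need to leave the endoplasmic reticulum (ENSG00000112697, chromosome 6, 75252924 to 75284968). These ATPases move phosphatidylserine to the inner leaflet of the plasma membrane.

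TGFBR1 stood at 45.8, 49.0 and 49.1 CPM in the Ad-HNF4A libraries and at 23.3, 22.3 and 23.9 CPM in the Ad-K458R libraries. The groups did not overlap, and the means differed 2.07-fold (log2 fold change -1.05 ± 0.08, adjusted p = 7.3e-04, edgeR). With Ad-GFP it stood at 22.2, 24.9 and 24.0 CPM. The log2 difference of Ad-K458R from Ad-GFP was -0.03 (95% interval -0.21 to 0.14), and that of Ad-HNF4A from Ad-GFP was 1.02 (adjusted p = 5.2e-05, edgeR). These contrasts share libraries and are not independent of each other. Within Ad-HNF4A, library 3, with the most HNF4A, had a TGFBR1 level close to that of the other two.

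TMEM30A stood at 128, 145 and 130.0 CPM with Ad-HNF4A and at 208, 210.5 and 212 CPM with Ad-K458R. Again the groups did not overlap, and Ad-K458R was 1.56-fold higher (log2 fold change 0.64 ± 0.06, adjusted p = 0.0023, edgeR). The Ad-GFP libraries were at 217, 224 and 219 CPM, so that the Ad-HNF4A libraries were the low ones. Against Ad-GFP the log2 difference was -0.07 for Ad-K458R (95% interval -0.19 to 0.06) and -0.71 for Ad-HNF4A (adjusted p = 6.6e-05, edgeR). Both genes passed in all 9 fits that left out 1 library. With the HNF4A level of each of the 6 libraries as a covariate, TGFBR1 had a log2 difference of -1.09 (adjusted p = 0.041, edgeR) and TMEM30A one of 0.70 that no longer passed (adjusted p = 0.055).

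**Figure D1:**
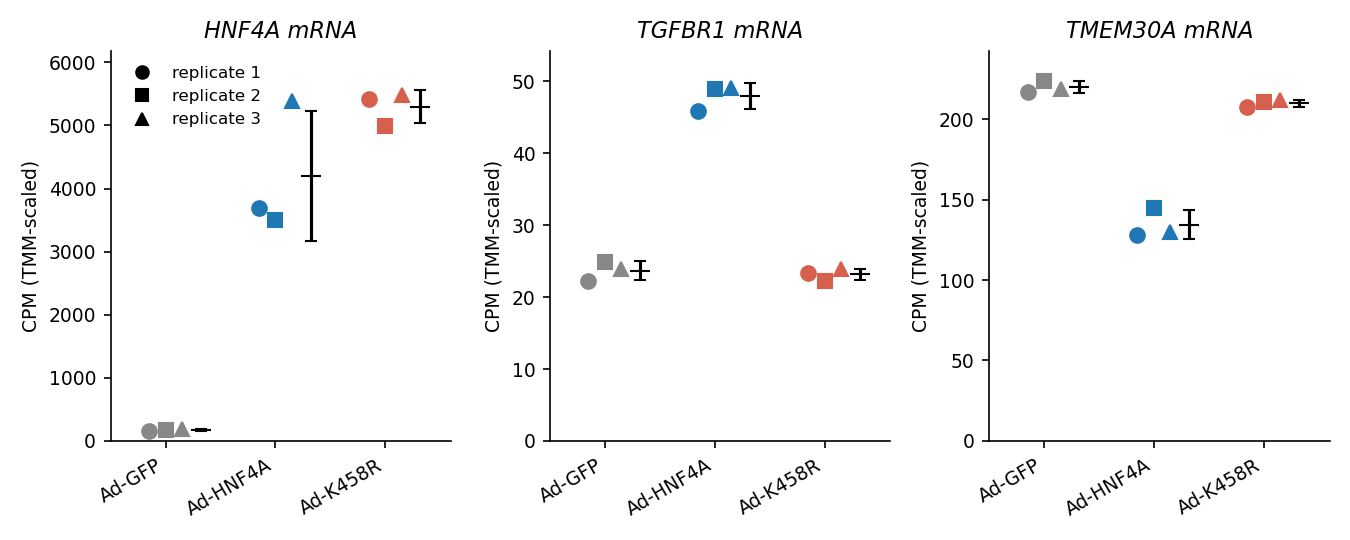
Level of HNF4A, TGFBR1 and TMEM30A mRNA (CPM, linear axis from 0) in each library of the 3 groups, with marker shape for the replicate and a bar for the mean ± SD of 3 libraries. Ad-HNF4A library 3 reaches the HNF4A level of the Ad-K458R libraries. For TGFBR1 (49.1 CPM) and TMEM30A (130.0 CPM) it lies with the other Ad-HNF4A libraries, which is given as a description only.

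Among the other receptors of the family, values lay closer together. TGFBR2, the type II receptor that pairs with TGFBR1 and named here after its values were seen, was at 206, 207 and 154 CPM with Ad-HNF4A and 209, 204 and 205 CPM with Ad-K458R (log2 difference 0.12 ± 0.10). ACVR1, a BMP type I receptor, had a log2 difference of 0.16 ± 0.07 and BAMBI, a decoy receptor, one of -0.18 ± 0.09 (adjusted p = 0.54 and 0.62, edgeR). Of 12 receptors tested, TGFBR1 alone passed. Of 12 flippases and subunits tested, TMEM30A alone passed. TMEM30B, the second subunit gene, was at 4.26, 2.84 and 3.33 CPM and at 2.58, 2.39 and 2.40 CPM, with the Ad-K458R libraries on the low side (log2 difference -0.50 ± 0.19, adjusted p = 0.53, edgeR). ATP10D had a log2 difference of -0.37 ± 0.11 (adjusted p = 0.44, edgeR). None of 11 scramblases, which let phospholipids cross the membrane in both directions, passed.

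Over all genes, few single genes stood out from the spread between libraries. At an unadjusted p under 0.05, 727 genes were higher (4.35%) and 733 lower (4.39%) with Ad-K458R. Both directions together would take about 5% if no gene differed, so small p were more frequent than that. The libraries of the 2 vectors did not overlap for 1253 genes with Ad-K458R on the high side (7.5%) and 1144 on the low side (6.85%). Interchangeable libraries would give a share of 0.1 for both sides together, which was also exceeded. DESeq2 at an adjusted p under 0.05 called 44 genes higher (0.264%) and 14 lower (0.0838%), TGFBR1 and TMEM30A among them. Leaving out each library in turn gave 1 to 11 genes higher and 1 to 5 lower in edgeR. The 11 came without Ad-HNF4A library 3, HNF4A, BAAT and CEACAM20 among them, and the 5 without Ad-K458R library 3. The median log2 fold change of all genes was -0.00329.

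What the libraries leave room for can be read from the intervals. Of 16694 genes with a 95% interval, that of 13582 (81.4%) lay wholly within a 2-fold difference in either direction, and that of 10107 (60.5%) within 1.5-fold. Among 9934 genes with a mean of at least 10 CPM, the shares were 95.7% and 86.5%. A gene past the threshold of neither test is therefore not shown to be alike with both vectors. Point estimates reached 2-fold for 124 genes higher and 106 lower. Only 5 higher and 6 lower of these had at least 10 CPM and no overlap between the groups.

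**Figure D2:**
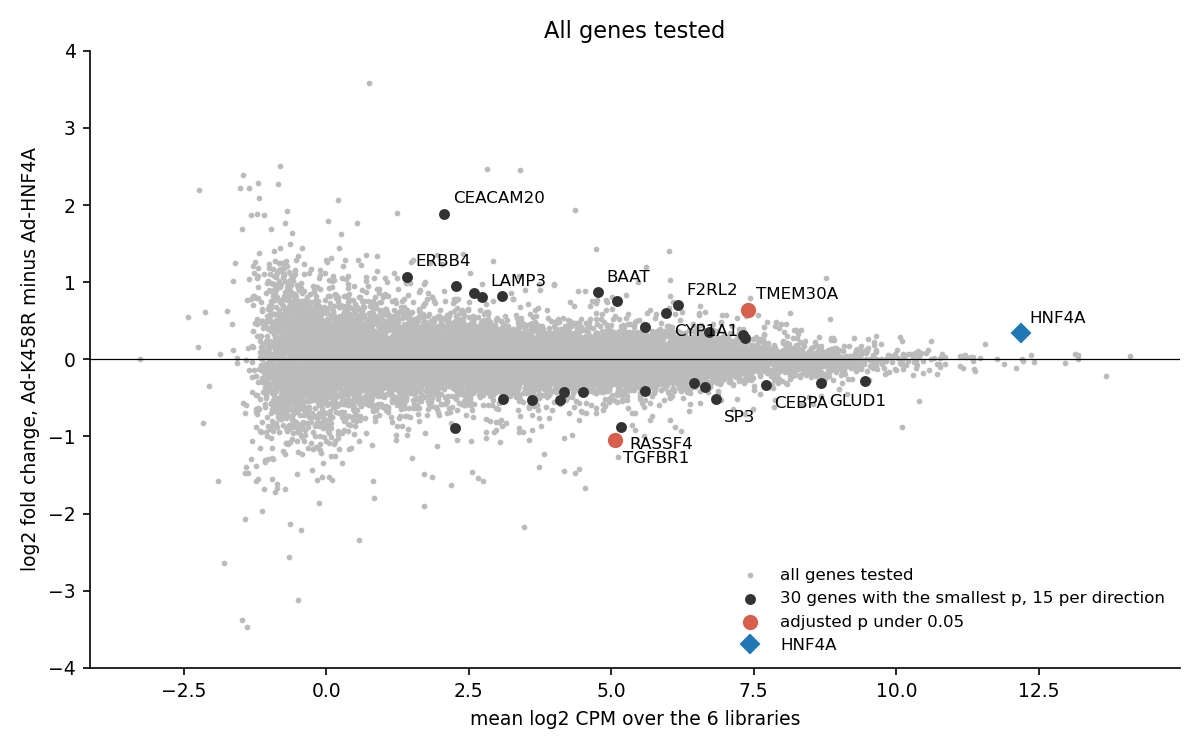
Log2 fold change of Ad-K458R against Ad-HNF4A (vertical axis) over the mean log2 CPM of the 6 libraries (horizontal axis) for the genes tested, with 2 genes beyond the vertical limits of 4 left out. The 2 genes past an adjusted p of 0.05 are in red, the 15 genes per direction with the smallest p in black, HNF4A in blue; most well-expressed genes lie close to 0.

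The genes with the next smallest p among those with Ad-K458R on the high side had adjusted p of 0.11 to 0.23 in edgeR, so that none of them passed. In either direction they were taken among genes whose libraries did not overlap between the vectors. Their separation was thus a condition of the choice. CEACAM20, a cell adhesion molecule known from the brush border of the gut, was without a single count with Ad-GFP. It stood at 1.57, 1.92 and 2.98 CPM with Ad-HNF4A and at 8.08, 8.35 and 7.70 CPM with Ad-K458R (log2 difference 1.89 ± 0.24, adjusted p = 0.11, edgeR). All Ad-K458R libraries lay more than 2-fold above the highest Ad-HNF4A library. It passed in DESeq2 (adjusted p = 2.2e-07), limma-voom, limma on FPKM, without the low-count filter, in the fit of the 6 libraries alone and without Ad-HNF4A library 3. TUBA3D, an alpha-tubulin gene, likewise had none, at 3.63, 3.13 and 3.48 CPM with Ad-HNF4A and at 6.38, 6.86 and 6.53 CPM with Ad-K458R (adjusted p = 0.23, edgeR). Its reads overlap those of MZT2A on the other strand, and alpha-tubulin genes are near-identical, so its count is uncertain.

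BAAT, which joins bile acids to glycine or taurine, was at 17.3, 18.9 and 24.2 CPM with Ad-HNF4A and 39.4, 33.0 and 38.0 CPM with Ad-K458R, beside 7.34, 9.30 and 10.2 CPM with Ad-GFP. The log2 difference between the vectors was 0.87 ± 0.15 (adjusted p = 0.19, edgeR; 2.8e-04, DESeq2). BAAT thus lay highest with Ad-K458R, with Ad-HNF4A in between, and all 3 groups apart. CYP1A1, a cytochrome P450 induced by the aryl hydrocarbon receptor, was at 50.1, 52.2 and 48.6 CPM and at 80.1, 76.7 and 72.1 CPM (log2 difference 0.60 ± 0.09, adjusted p = 0.16, edgeR). AHR, that receptor, had a log2 difference of 0.24 ± 0.07 (adjusted p = 0.42, edgeR).

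Other genes on the high side were of mixed roles. F2RL2 encodes protease-activated receptor 3, a thrombin cofactor, and lies within IQGAP2 on the other strand. It stood at 57.1, 65.9 and 47.7 CPM and at 97.1, 87.8 and 92.6 CPM (log2 difference 0.70 ± 0.11, adjusted p = 0.13, edgeR). DCAF5, a substrate adaptor of CUL4 ubiquitin ligases, was at 26.3, 27.1 and 26.0 CPM and at 40.6, 42.4 and 51.3 CPM. PIGX, a subunit of the enzyme that adds the first mannose to GPI anchors, was at 5.95, 7.31 and 5.601 CPM and at 12.4, 10.5 and 10.5 CPM. For these 3 genes the Ad-GFP libraries, at 81.3 to 90.8, 35.7 to 47.0 and 9.64 to 11.1 CPM, also lay above all Ad-HNF4A libraries.

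LAMP3, a lysosomal membrane protein, was at 5.14, 4.82 and 4.95 CPM with Ad-HNF4A and 9.89, 8.53 and 7.75 CPM with Ad-K458R (log2 difference 0.81 ± 0.14). The Ad-GFP libraries lay at 4.46 to 4.95 CPM, on the side of Ad-HNF4A. ERBB4, a receptor of neuregulins, was at 1.63, 1.68 and 1.97 CPM and at 4.29, 3.48 and 3.40 CPM (log2 difference 1.07 ± 0.19), again with Ad-GFP beside Ad-HNF4A at 1.55 to 1.95 CPM. OSTM1, a subunit of the lysosomal chloride exchanger, BHLHE40, a repressor of the circadian clock, ANXA3, an annexin, and PPP1R15A, a phosphatase subunit that reverses translational arrest, had log2 differences of 0.42, 0.36, 0.31 and 0.27. The clone-named AC036108.2 completed the 15.

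On the low side SP3 came closest to the threshold after TGFBR1. SP3 encodes a zinc-finger factor that binds GC boxes (chromosome 2, 173906459 to 173965702). It stood at 128, 144 and 135 CPM with Ad-HNF4A and at 88.0, 99.8 and 97.5 CPM with Ad-K458R (log2 difference -0.52 ± 0.07, adjusted p = 0.093, edgeR; 1.1e-05, DESeq2). The Ad-GFP libraries were at 145, 157 and 147 CPM, so the Ad-K458R libraries were the low ones, in contrast to TGFBR1. SP1, which binds the same boxes and is named after its values were seen, was at 106, 108 and 102 CPM and at 104, 100.1 and 101 CPM (log2 difference -0.05 ± 0.05).

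Among hepatocyte genes on the low side, CEBPA, a transcription factor of differentiated hepatocytes, stood at 258, 218 and 229 CPM and at 192, 188 and 178 CPM (log2 difference -0.34 ± 0.07, adjusted p = 0.27, edgeR; 0.029, DESeq2). GLUD1, glutamate dehydrogenase, was at 447, 449 and 467 CPM and at 382, 376 and 345 CPM (log2 difference -0.30 ± 0.06, adjusted p = 0.23, edgeR). It overlaps SHLD2 on the other strand. MIR122HG, the host transcript of the hepatocyte microRNA miR-122, was at 13.5, 14.3 and 15.8 CPM and at 10.002, 10.5 and 9.87 CPM. CPOX, a haem synthesis enzyme, was at 58.7, 56.2 and 51.2 CPM and at 38.6, 39.6 and 47.0 CPM, and FADS2, a fatty acid desaturase that overlaps FADS1 and FEN1, at 789, 763 and 756 CPM and at 607, 679 and 617 CPM. For each of these 5 genes the 2 vectors' libraries did not overlap, and adjusted p lay between 0.23 and 0.33 (edgeR).

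RASSF4, of a family of Ras effectors, was at 50.0, 47.4 and 49.1 CPM with Ad-HNF4A and 28.2, 27.0 and 24.8 CPM with Ad-K458R (log2 difference -0.87 ± 0.16, adjusted p = 0.23, edgeR). Its Ad-GFP libraries were spread from 23.2 to 40.2 CPM, and it passed in the fit of the 6 libraries alone. COL26A1, a collagen, was at 20.7, 19.04 and 21.5 CPM and at 14.1, 14.2 and 14.2 CPM, with Ad-GFP at 11.9 to 14.3 CPM. SAMD11 (-0.89), BICDL1, an adaptor of dynein (-0.43), MBOAT4, the ghrelin acyltransferase (-0.51), PGPEP1, a peptidase (-0.31), PHPT1, a histidine phosphatase (-0.36), and the clone-named AP001107.9 (-0.43) completed the 15 on the low side, with log2 differences as given. Of the genes named above, PIGX, RASSF4, CPOX, SAMD11, MBOAT4 and PHPT1 also share stretches with neighbouring genes, and the strand of the libraries is not stated, so reads of such pairs may not have been told apart.

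Some genes outside this ranking had large differences over uneven libraries and were picked out after their values were seen. FGA, the alpha chain of fibrinogen, was at 1537, 1553 and 1584 CPM with Ad-HNF4A and at 565, 581 and 1403 CPM with Ad-K458R (log2 difference -0.87 ± 0.35, adjusted p = 0.55, edgeR). Ad-K458R library 3 was close to Ad-HNF4A while the other two were far below it, and without library 3 FGA passed (log2 difference -1.44, adjusted p = 2.8e-06, edgeR). FGB, the beta chain, was at 1431, 1505 and 1576 CPM and at 1253, 1366 and 1363 CPM. TADA2B, an adaptor of the SAGA acetyltransferase complex, was at 16.2, 13.5 and 18.8 CPM with Ad-HNF4A and at 46.3, 43.3 and 41.2 CPM with Ad-K458R. Its Ad-GFP libraries ran from 17.2 to 44.2 CPM, and the difference of 1.43 ± 0.33 did not pass in edgeR (adjusted p = 0.36) but did in DESeq2 (adjusted p = 2.8e-04), without Ad-GFP library 1 and in the edgeR fit of the 6 libraries alone (adjusted p = 0.010).

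Gene lists were then read by the number of members past an unadjusted p of 0.05, beside 4.35% higher and 4.39% lower over all genes, and by the median log2 fold change, beside -0.00329. No list was tested as a set, and no member but TGFBR1 and TMEM30A passed the adjusted threshold in the fit of 9 libraries. Up to 3 members a list were chosen by the smallest p, and the others are named after their values were seen. High side and low side below mean an unadjusted p under 0.05 with Ad-K458R above or below Ad-HNF4A. Among 37 target genes of HNF4A in hepatocytes, 6 were on the high side and 6 on the low side, and the median was -0.02. BAAT, APOA4, NR1I3, NR1I2, HPD and CREB3L3 were the 6 on the high side. APOM, TTR, TF, APOA2, F10 and F12 were the 6 on the low side.

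APOA4, an apolipoprotein of fat transport, was at 131, 116 and 163 CPM with Ad-HNF4A and at 208, 209.9 and 189 CPM with Ad-K458R, beside 16.05 to 21.5 CPM with Ad-GFP (log2 difference between the vectors 0.56 ± 0.13, adjusted p = 0.33, edgeR). NR1I3, the receptor CAR, had no counts with Ad-GFP and stood at 3.38, 4.41 and 5.197 CPM and at 7.36, 6.50 and 7.98 CPM. HPD, a tyrosine-degrading enzyme, was at 30.3, 33.0 and 36.6 CPM and at 42.9, 37.3 and 42.3 CPM, beside 4.08 to 5.35 CPM. In these 3 genes and in BAAT, Ad-HNF4A library 3 was the highest of its group but still below every Ad-K458R library. The last point follows from the lack of overlap between the vectors in these genes. NR1I2 did not overlap either, while CREB3L3, also on the high side, did. APOM, an apolipoprotein of HDL, lay the other way, at 44.8, 34.7 and 48.8 CPM with Ad-HNF4A and 34.4, 34.6 and 27.4 CPM with Ad-K458R.

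Within Ad-HNF4A, the medians of the target list ran in the order of the HNF4A level. With 3 libraries such an order has little weight, and libraries 1 and 2 were close in HNF4A. Drug-metabolising enzymes, fatty acid oxidation and plasma proteins, among other lists, had the same order. Bile acid genes and the gluconeogenesis list did not. Relative to the group's own mean, the median over the 37 targets was -0.0493, -0.156 and 0.209 in Ad-HNF4A libraries 1 to 3, and -0.0838, -0.00415 and -0.0349 in the Ad-K458R libraries. Library 3, with the HNF4A level of Ad-K458R, thus had the highest median of the 6. It lay above all Ad-K458R libraries for 20 of 37 targets (54.1%), beside 30.1% of all genes, and below all of them for 9. Without library 1 the counts were 4 and 5 (median 0.00644). Without library 3, 11 targets were on the high side and 2 on the low side (median 0.05). With the HNF4A level as a covariate, where the level common to both vectors rests on library 3, 2 were on the high side and 12 on the low side (median -0.18). Background shares on the high and low side were 4.59% and 3.91% without library 1, and 3.91% and 3.61% without library 3. With the covariate they were 4.98% and 4.2%. The same shares apply to the list counts from these fits below. The direction in which the targets differ between the vectors therefore depends on how library 3 is treated.

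Single genes kept their direction, with smaller differences over library 3, in 4 targets and in CEACAM20, which is not on the target list. The vectors' libraries do not overlap for any of them, so the kept direction follows from that and is not a separate result. BAAT had a log2 difference from Ad-K458R of 1.03 over the mean of Ad-HNF4A libraries 1 and 2 and of 0.60 over library 3. For CEACAM20 the values were 2.21 and 1.43, for APOA4 0.71 and 0.31, for NR1I3 0.90 and 0.49, and for HPD 0.37 and 0.16. With the covariate the log2 differences of BAAT, CEACAM20, APOA4, NR1I3 and HPD were 0.61, 1.53, 0.35, 0.50 and 0.16, and none passed. FABP1, the fatty acid binding protein of the liver, had a wider difference over library 3: it was at 379, 346 and 551 CPM with Ad-HNF4A and at 291, 312 and 304 CPM with Ad-K458R. Its log2 difference was -0.49 in the fit of 9 libraries (adjusted p = 0.48, edgeR) and -0.82 with the covariate, where it passed (adjusted p = 0.041). Since a single Ad-HNF4A library has the Ad-K458R level of HNF4A, what is due to that level and what to the rest of this library cannot be told apart.

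**Figure D3:**
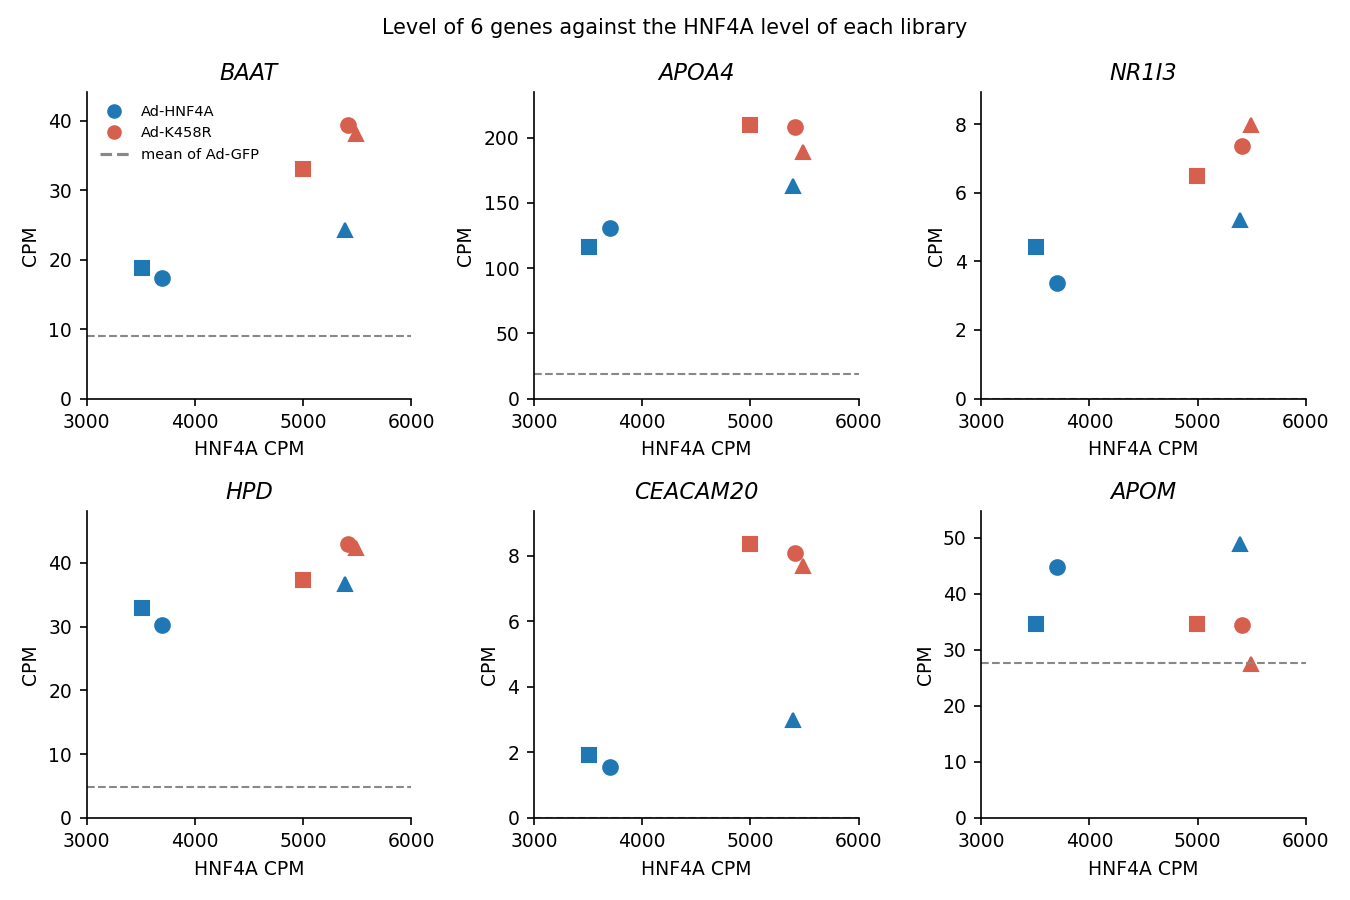
Level of 6 genes (CPM, linear axis from 0) against the HNF4A level of the same library (CPM, an axis that does not start at 0) in the 3 Ad-HNF4A (blue) and 3 Ad-K458R (red) libraries, with the Ad-GFP mean as a dashed line. At an HNF4A level of 5391 CPM, Ad-HNF4A library 3 lies below the Ad-K458R libraries for BAAT, APOA4, NR1I3, HPD and CEACAM20 and above them for APOM. For all 6 genes the vectors' libraries do not overlap, so the side on which library 3 lies follows from the choice of genes.

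Over all genes this library was not the one nearest to Ad-K458R. It was the closest of the 3 Ad-HNF4A libraries to the Ad-K458R mean for 31.6% of genes, beside 28.9% for library 1 and 39.5% for library 2. Of the 1460 genes past an unadjusted p of 0.05, the shares were 25.6%, 24.8% and 49.6%.

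Several lists of hepatocyte products had more members on the low side than on the high side. Cholesterol and fatty acid synthesis had 10 of 30 members on the low side and 1 on the high side (median -0.125). DGAT1, which makes triglyceride, was at 102, 83.8 and 124 CPM and at 73.0, 75.3 and 58.1 CPM (log2 difference -0.58 ± 0.14, adjusted p = 0.33, edgeR; 0.037, DESeq2). GPAM, which starts glycerolipid synthesis, was at 108, 101 and 106 CPM and at 91.6, 92.6 and 76.2 CPM. SCD, ACACA, ELOVL6 and LSS were among the 10 with smaller log2 differences, of -0.15 to -0.23. The median stayed below 0 in all 21 alternatives, from -0.16 to -0.09, and 9 and 8 members were on the low side without Ad-HNF4A libraries 1 and 3.

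Secreted proteins showed a like pattern of counts. Of 37 coagulation and complement genes, 8 were on the low side and 0 on the high side (median -0.09). Of 26 plasma proteins, 8 were on the low side and 1 on the high side (median -0.15). AHSG, fetuin-A, was at 482, 390.0 and 498 CPM and at 313, 355 and 252 CPM (log2 difference -0.57 ± 0.14, adjusted p = 0.37, edgeR; 0.029, DESeq2). AFP, alpha-fetoprotein, was at 13437, 13591 and 15342 CPM and at 12321, 11697 and 12533 CPM (log2 difference -0.21 ± 0.06, adjusted p = 0.42, edgeR). SERPINA3, the 1 on the high side, was at 2.07, 2.09 and 1.31 CPM and at 3.52, 3.61 and 6.25 CPM. FETUB and ITIH3, both under 1 CPM in every library, had the widest negative values, -1.38 and -1.57. Fatty acid oxidation had 5 of 27 on the low side and 1 on the high side. Apolipoproteins, with 2 of 20 and 1, were near the shares over all genes, 4.39% lower and 4.35% higher. In these 4 lists the median lay below 0 in all 21 alternatives. The 8 plasma proteins on the low side were 5 without Ad-HNF4A library 1 and 4 without library 3, the 8 of coagulation 7 and 5, the 5 of oxidation 4 and 3, and the 2 apolipoproteins 4 and 3.

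Other hepatocyte lists were split or near the background. Drug-metabolising enzymes had 1 of 28 on the low side, UGT2B10, whose family members are near-identical, and 0 on the high side (median -0.08), but the median turned to 0.08 without Ad-HNF4A library 3. Bile acid genes had 1 of 21 on the high side, BAAT, and 2 on the low side, the uptake carrier SLCO1B3 and the receptor NR1H4. Without Ad-HNF4A library 3 their median turned from -0.04 to 0.04. Gluconeogenesis and glycogen had 2 of 18 on the high side, GBE1 and the coactivator PPARGC1A (median 0.18). Without Ad-HNF4A library 1 this was 1, with a median of 0.05, and with the covariate 1 was on the high side and 3 on the low side. Of 23 urea cycle and amino acid genes, 2 were on the high side, KYNU and HPD, and 2 on the low side, ASL among them, and without Ad-HNF4A library 3 the counts were 4 and 2. Of 24 liver transcription factors besides HNF4A, 3 were on the high side, NR1I3, NR1I2 and CREB3L3, and 4 on the low side, CEBPA, FOXA3, NR1H4 and RXRA.

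Genes that handle acetyl marks and HNF4A's partners had few members on either side. Of 29 lysine acetyltransferases and deacetylases, HDAC9 was on the high side and SIRT3 on the low side. HDAC9 was at 16.1, 35.9 and 22.8 CPM with Ad-HNF4A and at 47.9, 41.2 and 41.7 CPM with Ad-K458R (log2 difference 0.80 ± 0.25, adjusted p = 0.47, edgeR). CREBBP, an acetyltransferase and HNF4A coactivator, had a log2 difference of 0.29 ± 0.13 and EP300 one of 0.04 ± 0.06. Of 18 coregulators, PPARGC1A and NRIP1 were on the high side and NCOA2 on the low side. PPARGC1A was at 5.76, 6.38 and 4.69 CPM and at 7.58, 7.76 and 10.5 CPM, with Ad-GFP at 7.12 to 10.1 CPM.

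Several lists of signalling and stress genes had more members on the high side than on the low side. The NF-kB response had 8 of 20 members on the high side and 0 on the low side (median 0.22). TNFAIP3, a brake on NF-kB, was at 43.2, 43.2 and 44.8 CPM and at 52.8, 56.4 and 55.6 CPM (log2 difference 0.33 ± 0.08, adjusted p = 0.34, edgeR). CXCL8, interleukin 8, was at 60.3, 68.7 and 31.7 CPM and at 84.3, 98.0 and 87.6 CPM, with Ad-HNF4A library 3 the lowest of the 6. ICAM1, an adhesion receptor of leukocytes, likewise had library 3 lowest, at 312, 304 and 216 CPM and at 368, 339 and 339 CPM. Over the list, library medians relative to the Ad-HNF4A mean were 0.145, 0.0669 and -0.205 with Ad-HNF4A and 0.274, 0.194 and 0.271 with Ad-K458R. Without library 3 the count was 6 on the high side and 0 on the low side (median 0.12).

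TGF-beta response genes had 8 of 30 members on the high side and 0 on the low side (median 0.15), while the receptor TGFBR1 was lower. THBS1, thrombospondin 1, was at 253, 246 and 155 CPM and at 307, 286 and 307 CPM, and CCN1, a matrix protein, at 199, 198 and 144 CPM and at 255, 241 and 262 CPM. In both genes Ad-HNF4A library 3 was the lowest, and the Ad-K458R libraries lay above the other two as well. Without library 3 the list had 8 members on the high side and 1 on the low side, and its median was 0.05.

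Of 20 ligands of the family, GDF15, BMP2 and BMP8B were on the high side and BMP4 on the low side. Without Ad-HNF4A library 1 the counts were 5 and 0, and without library 3 they were 4 and 0. GDF15, a stress-induced cytokine, was at 82.9, 77.7 and 62.7 CPM and at 109.5, 103 and 93.8 CPM (log2 difference 0.46 ± 0.10, adjusted p = 0.31, edgeR; 0.027, DESeq2). BMP4 was at 20.7, 16.3 and 20.1 CPM and at 13.4, 5.64 and 12.3 CPM. Of 19 SMADs and their inhibitors, SMAD3, the effector that TGFBR1 phosphorylates, was at 97.4, 98.8 and 90.1 CPM and at 120.5, 111 and 109.8 CPM (log2 difference 0.25 ± 0.06, adjusted p = 0.33, edgeR). SMURF1 and NEDD4L were also on the high side, and SMAD6 and SKI on the low side, with a list median of -0.01. The SMAD6 libraries overlapped between the vectors.

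Lysosomal genes had 9 of 25 members on the high side and 0 on the low side (median 0.10). CTSL, GLA, HEXA, MCOLN1, CD63, CD68 and LAMP2 were among those that joined LAMP3 there. MCOLN1, a calcium channel of lysosomes, was at 41.6, 37.8 and 38.9 CPM and at 49.3, 48.0 and 48.9 CPM (log2 difference 0.31 ± 0.08, adjusted p = 0.36, edgeR). Counts without Ad-HNF4A libraries 1 and 3 were 8 and 7 on the high side and 0 on the low side. NRF2 antioxidant genes had 4 of 22 on the high side, TXNRD1 among them, immediate early genes 3 of 24 (FOSL1, JUN and DUSP1), p53 targets 3 of 22, interferon genes 3 of 19 and heat shock proteins 3 of 21, all with 0 on the low side. These smaller counts were uneven: without Ad-HNF4A library 1 the immediate early list had 8 and the interferon list 1, and without library 3 the NRF2 list had 2, the p53 list 1 and the interferon median turned to -0.03. FOSL1, an AP-1 subunit, was at 6.14, 8.71 and 7.42 CPM and at 12.5, 10.9 and 14.8 CPM (log2 difference 0.78 ± 0.16, adjusted p = 0.28, edgeR; 0.019, DESeq2).

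HSPB8, a small heat shock protein, was at 50.4, 49.9 and 36.0 CPM and at 69.5, 63.2 and 63.9 CPM. Of 26 genes of endoplasmic reticulum stress, 4 were on the high side and 1, PHGDH, on the low side, and 0 and 1 were on the high side without Ad-HNF4A libraries 1 and 3. Of 20 genes of the epithelial-mesenchymal transition, VIM, SPARC and the epithelial KRT8 were on the high side and 0 on the low side. Of 30 S phase genes, 4 were on the low side, MCM2, MCM3, MCM5 and MCM7, and 0 on the high side. Without Ad-HNF4A library 1 they were 2 and 1, and with the covariate 1 and 1. Mitosis was near the background, with 1 of 32 on the low side, PLK1, and 0 on the high side. MCM2, a subunit of the replicative helicase, was at 349, 335 and 335 CPM and at 282, 309 and 293 CPM (log2 difference -0.20 ± 0.07, adjusted p = 0.50, edgeR).

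Remaining lists were small or even. SP and KLF factors had 2 of 20 on each side, with SP3 and KLF15 low and KLF10 and KLF7 high. The CEACAM and brush border list had CEACAM20 on the high side and CDHR5 and MYO1A on the low side of 16. Of 7 protease-activated receptors and thrombin partners, F2RL2 and F2RL1 were high and PROC low. Oncofetal and progenitor genes had 1 of 18 on the high side and 2 on the low side. Of 13 mRNAs of the mitochondrial genome, 0 were on either side. All genes of the mitochondrial chromosome together took 5.58 to 6.19% of counts in the 6 libraries.

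Markers of hepatocyte-like cancer cells were abundant in all 6 libraries. Sums are over the markers that passed the filter on low counts. The 10 markers of hepatocytes and liver cancer cells summed to 33700 to 36000 CPM with Ad-HNF4A and 32400 to 32500 CPM with Ad-K458R, with AFP, TTR and FGB on the low side at an unadjusted p under 0.05 and KRT8 on the high side. Of 12 macrophage markers, 9 were tested and summed to 33.4 to 40.6 and 42.1 to 45.0 CPM, beside 18.8 to 22.4 CPM with Ad-GFP. CD68 alone of these was on the high side, at 14.8, 16.2 and 22.6 CPM and at 25.3, 24.8 and 24.4 CPM, while CD163, ADGRE1 and TYROBP did not pass the filter on low counts. PTPRC, the pan-leukocyte marker, was at 0.116 to 1.38 CPM and 0.279 to 0.812 CPM. Of 6 neutrophil markers, 3 were tested and summed to 11.7 to 20.6 and 19.7 to 23.2 CPM, mostly S100A9, beside 7.43 to 9.33 CPM with Ad-GFP. Among them CSF3R lay lower with Ad-K458R (log2 difference -0.63). Fibroblast markers summed to 125 to 136 and 120 to 133 CPM. The red cell marker SLC4A1, without counts with Ad-GFP, was at 5.64, 4.47 and 8.07 CPM and at 9.29, 7.67 and 8.14 CPM, while HBA1, HBB and the other 3 red cell markers did not pass the filter. CD79A was the 1 lymphocyte marker of 6 that passed it, at 0.814, 0.638 and 0.858 CPM and at 1.32, 1.67 and 1.84 CPM. With Ad-GFP it was at most at 0.0544 CPM. Of 7 endothelial markers, 2 were tested and summed to 48.1 to 58.7 and 41.4 to 47.9 CPM. The sum was mostly PECAM1 (log2 difference -0.26), while VWF lay the other way (0.65). Whether these markers, or mouse reads counted on human genes, bear on the NF-kB and lysosome counts was not tested. In bulk tumours, fewer cells of a type and less RNA per cell cannot be told apart.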

How the data were processed

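Messenger RNA of tumours was sequenced in 9 libraries after oligo(dT) selection and random priming, per the labels' protocols. The authors deposited a table of read counts per gene and, beside it, FPKM values, per the file headers. Reads were trimmed with Trimmomatic, per the submitters' processing notes. For the aligner, the counter and the handling of mouse reads: not given in the sources used here. The notes name mm10, while 98.5% of the table's gene identifiers are in the human GENCODE 29, 94.8% of these at the same GRCh38 position, so positions are given on GRCh38. Groups come from the sample titles and, for 1 Ad-K458R library, from its description. The labels' treatment field disagrees for libraries 2 and 3 of both vectors: the number inside the vector's name goes up by 1 from library to library there, and titles and descriptions were followed instead.

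Counts were tested with edgeR 4.0.16 (R 4.3.3): genes with few counts were removed by filterByExpr, libraries were scaled by TMM (factors 0.977 to 1.01), and the robust quasi-likelihood F test was fitted to all 9 libraries, which share 1 estimate of the spread. P-values were adjusted by Benjamini-Hochberg over all 16697 genes, with 0.05 as the threshold. Fold changes are on the log2 scale, ± their SE, and log2 CPM uses a prior count of 2. Genes were named by rule: HNF4A, every called gene, the 15 smallest p per direction where the vectors' libraries did not overlap and log2 CPM averaged 1 or more, and up to 3 of the smallest p per list. Members and lists were chosen with earlier results of these data known. CPM takes no account of gene length, so levels are not compared between genes. Alternatives were DESeq2 1.42.0, limma 3.58.1 (voom, and log2 of FPKM + 1), other scalings and filters, the 6 libraries alone, the HNF4A level as a covariate, a fold limit of 1.2, a replicate block and leaving out each library. Some list members are counted but not reported by name here.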

Additional observations from a re-analysis of the deposited data

How the results depend on the processing

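TGFBR1 and TMEM30A kept their direction in all 21 alternatives and passed in all but 1, the fit of 6 libraries with the HNF4A level as a covariate, where TMEM30A did not. Genes higher with Ad-K458R numbered 1 in the edgeR fit of 9 libraries, 44 with DESeq2, 2 with limma-voom, 3 with limma on log2(FPKM + 1), 7 without the low-count filter, 6 in the fit of 6 libraries, 4 with the covariate and 1 to 11 when 1 library was left out. Genes lower numbered 1, and then 14 with DESeq2, 2 without the filter, 3 in the fit of 6 libraries, 3 with the covariate and 1 to 5 when 1 library was left out. The cause of these shifts was not tested. The genes past an unadjusted p of 0.05 numbered 1460, and 393 when a fold limit of 1.2 was tested. The HNF4A difference lay between 0.22 and 0.56 when 1 library was left out, and passed at 0.56, without Ad-HNF4A library 3 (adjusted p = 0.0442, edgeR).

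Replicate numbers were not found to pair the libraries: deviations of same-numbered libraries correlated at -0.0379 to 0.0526. With the replicate block 1 gene was higher and 1 lower, the genes past an unadjusted p of 0.05 numbered 1314 and the HNF4A difference was 0.36. Counts of list members without Ad-HNF4A library 1 or 3 and with the covariate were chosen after seeing the data. With 3 libraries a group the data leave a median SE of 0.142 on the log2 scale, and 0.0976 for genes of at least 10 CPM. No difference under 1.5-fold passed the adjusted threshold in the edgeR fit of 9 libraries, and most larger ones did not pass. Point estimates reached 2-fold for 124 genes higher and 106 lower, and TGFBR1 alone of these passed. TMEM30A passed at 1.56-fold. Differences well above 1.5-fold could therefore also go undetected.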
